A study of Mus musculus with 18 samples.

Results

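The 10 genes described here form the core of the circadian clock and its best known output. They are the activators Arntl (also called Bmal1) and Clock, the repressors Per1, Per2, Per3, Cry1 and Cry2, the nuclear receptors Nr1d1 and Nr1d2, and Dbp, a transcription factor that the clock drives. The members were fixed by symbol, and all 10 were found among the 14521 named genes of the deposited table. The mRNA of 18 skin samples was sequenced, taken from 6 female mice of the outbred hairless strain SKH-1E, which develops skin tumours under ultraviolet light. From each mouse came skin without a lesion that had been irradiated for long (CHR), 1 papilloma (PAP, a benign epidermal tumour) and 1 squamous cell carcinoma of the skin (SCC). All 3 groups carry the same hairless background and the same chronic exposure to a solar simulator, so that CHR is itself irradiated and no unirradiated skin enters the comparisons. The mice were littermates killed after irradiation had ended. The clock hour of death is not given in the sources used here, and age is not among the labels. Since the 3 samples of a mouse were taken at the same death, the groups were compared within mice, and the fit carried 1 term for each mouse. Libraries held 15.4 to 21.0 M recovered reads. The values below are normalised read counts, that is, recovered reads divided by the size factor of the library. Log2 fold changes were computed on the deposited values as log2(value + 1), a scale that understates the change of low genes.

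In most mammalian cells ARNTL and CLOCK bind DNA as a pair and switch on the Per, Cry, Nr1d and Dbp genes. PER and CRY proteins then return to the nucleus and silence that pair, and NR1D1 and NR1D2 (the REV-ERB receptors) shut down Arntl itself, which peaks when Dbp and the Per genes are low. Skin cells keep such a clock, which is known to time DNA repair and cell division in the epidermis. A single sample per tissue and mouse shows levels at 1 moment and cannot tell a shifted rhythm from a weakened one.

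The elements through which this circuit acts could be found in some of the promoters. RefSeq windows of 300 bases (250 before and 50 after the start site, GRCm38.p6) were on hand for 9 of the 10 genes, which had 13 windows between them. The E-box CACGTG, at which the ARNTL and CLOCK pair binds, was found in 2 of the 13 windows (2 genes), while 7.15% of all 32851 windows held it. The D-box TTANGTAA, at which DBP and its relatives bind, was found in 1 of the 13 against 2.32% of all windows. AGGTCA, the core of the site bound by the REV-ERB and ROR receptors, was found in 4 of the 13 (4 genes) against 16.3% of all windows. Both strands were searched, and none of the motifs contains another. A match is a description of these letters only. The 4 genes with AGGTCA were Arntl, Clock, Nr1d2 and Per1. Whether any of these motifs bears on the levels of its gene was not tested. Matched letters are in capitals for every E-box and D-box match in the 13 windows and, of the half-sites, for that of Arntl only.
Per1 E-box, 166 bases before the start site (chr11:69098771-69098800, plus strand): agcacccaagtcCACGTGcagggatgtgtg
Cry1 E-box, 60 bases before the start site (chr10:85185097-85185126, minus strand): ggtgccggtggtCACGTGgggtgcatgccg
Per3 D-box, 205 bases before the start site (chr4:151044852-151044881, minus strand): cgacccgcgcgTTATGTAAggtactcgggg
Per3 D-box, 158 bases before the start site (chr4:151044805-151044834, minus strand): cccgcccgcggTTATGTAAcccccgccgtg
Arntl half-site, 31 bases after the start site (chr7:113207530-113207559, plus strand): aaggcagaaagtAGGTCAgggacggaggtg

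All 10 genes were well expressed in irradiated skin. Per kilobase of exon, Clock was the most abundant at 260 ± 27.5 normalised reads per kb (mean ± SD, n = 6) in CHR, and Per2 the least at 60.0 ± 45.9. Between them, from Nr1d1 (161 ± 28.1) down to Cry2 (86.1 ± 14.7), each gene lay within 1 SD of the next in the order. Clock was also first in PAP (377 ± 49.4) and in SCC (329 ± 61.8) and Per2 last in both (41.4 ± 45.3 and 30.4 ± 8.82). Lengths are those of the merged exons in GENCODE M21. Nr1d1 (ENSMUSG00000020889.11, GRCm38 chromosome 11, 98767932 to 98775333) shares 8.5% of its exon bases with Thra on the other strand, and Dbp shares 18% with Sphk2. Whether the counting used strand is not stated, so reads in these stretches cannot be assigned.

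The first question was how far these genes differed between mice, since clock transcripts vary with the hour of sampling and the hour is shared within a mouse. In CHR the mice fell far apart. Arntl (ENSMUSG00000055116.8, chromosome 7, 113207465 to 113314126) stood at 1012, 771, 804 and 815 normalised reads in mice 2, 3, 7 and 8, but at 511 in mouse 9 and 439 in mouse 10. Per2 (ENSMUSG00000055866.9, chromosome 1, 91415982 to 91459324) ran the other way, with 58.6, 298.7, 270.7 and 126.9 in mice 2, 3, 7 and 8 compared with 633 in mouse 9 and 721 in mouse 10. The mouse with the most Arntl thus had the least Per2, and the mouse with the least Arntl the most. Dbp counts in CHR were 254, 256, 202 and 307 in the first 4 mice and 494 and 561 in mice 9 and 10. In CHR, mouse 10 had the highest and mouse 9 the second highest count of Per1, Per2, Per3, Cry1, Cry2, Nr1d2 and Dbp, 7 of the 10 genes.

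Clock and Nr1d1 did not share this order. In CHR, Clock stayed between 3312 and 3530 in 5 mice and reached 4326 in mouse 2. Nr1d1 ranged from 386 in mouse 7 to 604 in mouse 8, with mice 9 and 10 at 417 and 492. On the log2 scale the SD between mice in CHR was 1.03 for Per2, 0.54 for Per3, 0.49 for Per1, 0.48 for Dbp and 0.41 for Arntl, against a median of 0.17 over all genes tested. Among 11617 genes with a mean of at least 100 normalised reads, Per2 lay at percentile 99.4 of this spread, Per3 at 95.3 and Arntl at 90.7. Clock lay at percentile 42.1.

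**Figure D1:**
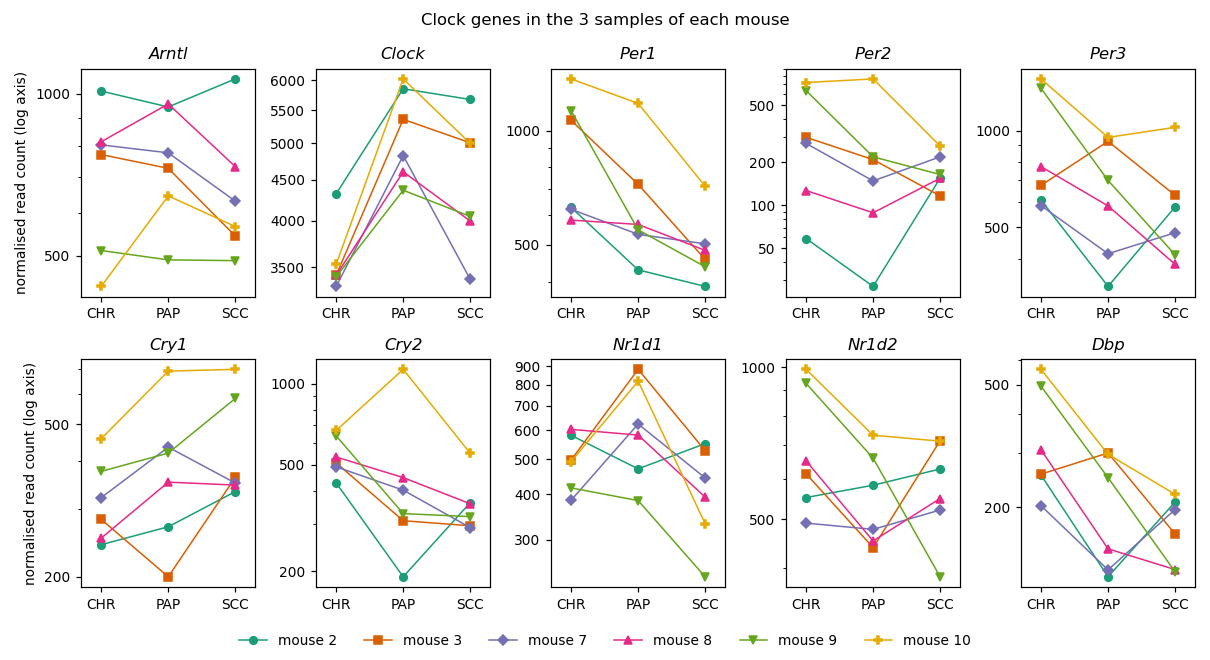
Normalised read count (log axis) of each clock gene in the 3 samples of each mouse, with 1 line per mouse and CHR, PAP and SCC along the x axis. In CHR, Per2 spans 58.6 to 721 between mice, while all 6 CHR counts of Clock lie below the lowest PAP count of 4369.

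Part of this order carried over into the lesions. Mouse 10 again had the highest Per1, Per2, Per3, Cry1 and Cry2 in both lesions. Its papilloma held 764 normalised reads of Per2 and 1131 of Cry2, while the other 5 papillomas held 27.2 to 218 and 191 to 447. Its carcinoma held 260 reads of Per2, against 116 to 218 in the others. Mouse 9 had the lowest Arntl in both lesions, 491 in PAP and 490 in SCC, although its Dbp fell from 494 in CHR to 249 in PAP and 123 in SCC, the lowest of the 6 carcinomas. Mouse 2 had the lowest Per2 in CHR (58.6) and PAP (27.2) but not in SCC (155).

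A test of the mouse term over all 3 samples asked whether these differences exceeded the spread within mice. In the limma F test, 7 of the 10 genes (Per1, Per2, Per3, Cry1, Cry2, Arntl and Clock) had an unadjusted p under 0.05, where 10.6% of all genes did. After adjustment over 14521 genes, 0 of the 10 passed in limma, and 0 passed in limma-voom, where 7 again had an unadjusted p under 0.05. Only 6 genes in all passed (0.0413%). Arntl (F = 9.56, unadjusted p 0.000523) and Cry1 (F = 9.28, unadjusted p 0.000604) came closest among the 10, both with a limma adjusted p of 0.237. The adjusted p of Nr1d1, Nr1d2 and Dbp was 0.516, 0.599 and 0.545. Without mouse 10 only 4 of the 10 had an unadjusted p under 0.05 in limma, and 7 to 8 had it without each other mouse in turn. With reads scaled to keratinocyte markers 2 of the 10 had it.

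The spread between mice of Per2, Per1 and Dbp was lower in SCC than in the other tissues. The SD of Per2 on the log2 scale was 1.03 in CHR and 1.08 in PAP but 0.30 in SCC, where its highest count was 2.23 times its lowest, compared with 12.3 times in CHR and 28.1 times in PAP. Dbp went from 0.48 in CHR and 0.46 in PAP to 0.26 in SCC, and Per1 from 0.49 and 0.46 to 0.26. The median over all genes moved in the opposite direction, from 0.17 in CHR to 0.30 in PAP and 0.31 in SCC. Per3 had SDs of 0.54, 0.55 and 0.46 in CHR, PAP and SCC, and Arntl 0.41, 0.33 and 0.37. Nr1d2 went from 0.37 in CHR to 0.30 in SCC. The other members had a larger SD in SCC than in CHR. Cry1 went from 0.29 to 0.40, Cry2 from 0.215 to 0.287, Clock from 0.14 to 0.27 and Nr1d1 from 0.22 to 0.38. These SDs rest on 6 mice each, and no test of their difference was run.

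**Figure D2:**
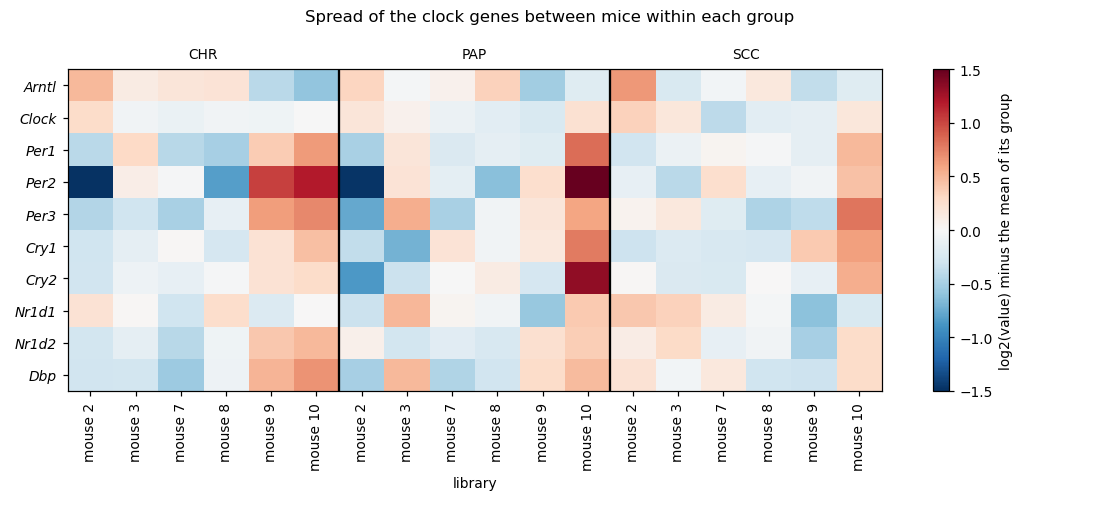
Deviation of each clock gene from the mean of its group in log2(value), with 1 column per library and the groups separated by black lines. Per2 is low in mouse 2 and high in mouse 10 in CHR and PAP. Colours stop at 1.5, and the largest deviation is 1.79.

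Over the 18 libraries, after the mean of each group had been subtracted, Per3 and Dbp were the most alike of all pairs, with a Pearson correlation of 0.92. Per1 and Per2 followed at 0.87. Arntl correlated negatively with Per2 (-0.66), Cry1 (-0.585), Per1 (-0.58), Per3 (-0.57), Dbp (-0.55), Nr1d2 (-0.46) and Cry2 (-0.285), and positively with Clock (0.36) and Nr1d1 (0.38). These are descriptions, since the 18 libraries come from 6 mice and are not independent. Among 11666 genes outside the 10 with a mean of at least 100 recovered reads, the gene most like Dbp was Tef (0.85), which encodes a close relative of DBP, followed by Fam76a (0.73), Bpgm (0.71), Tsc22d3 (0.71) and 1190002N15Rik (0.71). Tef had its highest count in mouse 10 in CHR (3114) and SCC (1784). The genes most like Arntl were Irf2bp2, Jph1, Tceanc, Inpp4b and Tmem231 (0.71 to 0.74), and those most like Nr1d1 were Qser1, Zfp398, Brf1, Zcchc14 and Foxo1 (0.77 to 0.84).

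The main question was how the clock differs between lesion and irradiated skin of the same mouse. In PAP vs CHR, Clock rose and Per1 and Dbp fell, 3 of 10 genes at a limma adjusted p under 0.05, while 52.6% of all genes passed. In SCC vs CHR, Clock and Cry1 rose and Per1, Per3, Cry2 and Dbp fell, 6 of 10, while 38.4% of all genes passed. Without the mouse term 2 of 10 passed in each of these comparisons, and with reads scaled to keratinocyte markers 6 (all lower) passed in the former and 0 in the latter. In SCC vs PAP, 0 of 10 passed in limma and 0 in limma-voom, while 9.85% of all genes passed in limma (8.75% higher and 1.1% lower). Of the 10, 3 (Per1, Clock and Nr1d1) had an unadjusted p under 0.05 there, as had 24.6% of all genes. The 10 genes had a median log2 fold change of -0.32 in the papillomas and -0.38 in the carcinomas against CHR, where it was 0.00 and -0.02 over all genes tested. No member was higher in SCC than in PAP in 6 of 6 mice (8.38% of all genes were), and none but Clock in PAP vs CHR had groups that do not overlap (19.7% of all genes did in SCC vs CHR and 0.413% in SCC vs PAP). Both comparisons use the same CHR libraries. In bulk tissue, fewer cells that express a gene and less RNA per cell cannot be told apart.

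**Figure D3:**
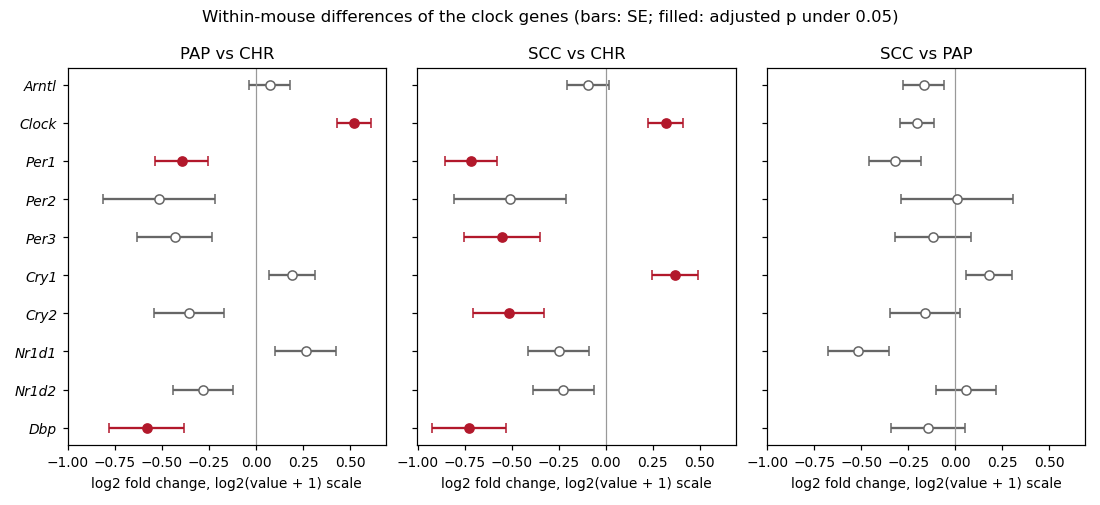
Log2 fold change of each clock gene on the log2(value + 1) scale in the 3 comparisons, with bars for the SE and filled points for an adjusted p under 0.05 in limma. The Per genes and Dbp lie left of 0 and Clock right of 0 in both lesions against CHR, and no point is filled in SCC vs PAP. Scaled to keratinocyte markers, Clock lay at -0.13 in PAP vs CHR.

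Clock (ENSMUSG00000029238.11, chromosome 5, 76209868 to 76304792), the activator gene that encodes the partner of ARNTL, was the only member whose PAP and CHR counts did not overlap. Its counts in SCC overlapped those of both other tissues. It stood at 3569 ± 377 normalised reads in CHR (mean ± SD, n = 6), 5173 ± 678 in PAP and 4519 ± 848 in SCC. In PAP all 6 counts, 4369 to 6021, lay above the highest CHR count of 4326, a separation that 33.6% of all genes showed in this comparison. Clock rose in PAP vs CHR by 0.52 ± 0.09 (SE) on the log2 scale (limma adjusted p 0.000433) and was higher in 6 of 6 mice, as were 22.5% of all genes, although the sign turned when reads were scaled to keratinocyte markers (-0.13). It also rose in SCC vs CHR, by 0.32 ± 0.09 (adjusted p 0.0159) and in 6 of 6 mice, as did 16.3% of all genes. This second change lost the call without mouse 3 (0.0691), without mouse 10 (0.054) and without the mouse term (0.0537). It also lost it with reads scaled to keratinocyte markers (0.37). Clock was lower in SCC than in PAP in 6 of 6 mice, as were 2.87% of all genes, with a log2 fold change of -0.20 ± 0.09 that did not pass (adjusted p 0.195).

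Arntl itself differed little between tissues. Mean counts were 725 ± 213 for CHR, 757 ± 179 for PAP and 672 ± 210 for SCC. The log2 fold changes were 0.07 ± 0.11 (SE) for PAP and -0.09 ± 0.11 for SCC against CHR, with limma adjusted p of 0.601 and 0.527, and the sign in PAP vs CHR turned without mouse 10 (-0.01). In 5 of 6 mice the ratio of PAP to CHR was between 0.93 and 1.18, and it was 1.47 in mouse 10.

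The Period genes encode the repressors that set the pace of the loop, and all 3 had lower means in the lesions. Per1 (ENSMUSG00000020893.17, chromosome 11, 69095217 to 69109960), which also responds quickly to hormones and stress, counted 627, 1064, 620, 581, 1128 and 1368 in CHR of mice 2, 3, 7, 8, 9 and 10. In the same order it counted 430, 722, 533, 566, 548 and 1179 in PAP and 389, 458, 503, 484, 438 and 714 in SCC. Every papilloma lay below the skin of its own mouse and every carcinoma below its papilloma, although the groups overlap. The log2 fold change was -0.40 ± 0.14 (SE) in PAP vs CHR (limma adjusted p 0.0299) and -0.72 ± 0.14 in SCC vs CHR (0.0017), each lower in 6 of 6 mice, as were 26.3% and 22.2% of all genes. In SCC vs PAP it was -0.32 ± 0.14 with an adjusted p of 0.175. The call in PAP vs CHR was lost without mouse 2 (0.0731), without mouse 3 (0.072), without mouse 9 (0.104) and without the mouse term (0.158). That in SCC vs CHR held without each mouse in turn, but not with reads scaled to keratinocyte markers (0.314).

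Per3 (ENSMUSG00000028957.12, chromosome 4, 151003652 to 151044665), whose promoter holds both D-boxes shown above, fell in SCC vs CHR, where the mean went from 907 ± 389 down to 585 ± 235. The difference was -0.55 ± 0.20 (SE) on the log2 scale (limma adjusted p 0.0444), and all 6 mice had less Per3 in SCC, with ratios within mice from 0.30 to 0.95. It no longer passed without mouse 7 (0.0637), mouse 8 (0.135), mouse 9 (0.18) or mouse 10 (0.085) and without the mouse term (0.13). Nor did it pass with reads scaled to keratinocyte markers (0.485). In PAP, with 651 ± 259, it differed from CHR by -0.43 ± 0.20 (adjusted p 0.0861), with more Per3 than in skin in mouse 3 alone, and it passed without mouse 3 (0.0313) and with reads scaled to keratinocyte markers (0.0209). Per2 had the widest spread. Mean counts were 352 ± 269 for CHR, 242 ± 265 for PAP and 178 ± 51.7 for SCC, and the log2 fold changes of -0.52 ± 0.30 and -0.51 ± 0.30 did not pass (adjusted p 0.164 and 0.199). The former passed with only PAP and CHR in the fit (adjusted p 0.0308) and with reads scaled to keratinocyte markers (-1.40, adjusted p 0.0369). Within mice the carcinoma held between 0.26 and 2.64 times the Per2 of the skin. Per2 was higher in SCC than in CHR in mouse 2 and mouse 8, the mice with the lowest counts in CHR, and lower in the other 4. In limma-voom on recovered reads, Per2 passed in SCC vs CHR with -0.90 (adjusted p 0.0354), as it did without mouse 2 (-0.78, adjusted p 0.0424).

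The cryptochromes, which act with PER in the repressor complex, moved apart. Cry1 (ENSMUSG00000020038.10, chromosome 10, 85131700 to 85185064) counted 242, 282, 322, 252, 377 and 459 in CHR of mice 2, 3, 7, 8, 9 and 10 and 334, 363, 351, 347, 584 and 697 in SCC. It was higher in SCC in 6 of 6 mice, by 0.37 ± 0.12 (SE) on the log2 scale (limma adjusted p 0.0309). In PAP, with 395 ± 170 (SD, n = 6), it was higher in 5 of 6 mice (0.19 ± 0.12, adjusted p 0.212) and passed without mouse 3 (0.0457). Cry2 (ENSMUSG00000068742.11, chromosome 2, 92403646 to 92434043) counted 427, 507, 490, 533, 639 and 670 in CHR of the same mice and 361, 296, 291, 357, 320 and 551 in SCC. In SCC all 6 mice had less Cry2 than in skin (log2 fold change -0.52 ± 0.19, limma adjusted p 0.044). In PAP it was lower in 5 of 6 mice but 1.69 times higher in mouse 10 (-0.36 ± 0.19, adjusted p 0.127), and it passed without mouse 10 (-0.57, adjusted p 0.0107) and with reads scaled to keratinocyte markers (0.0174). The call of Cry1 in SCC was lost without mouse 2, 8, 9 or 10 (0.0649 to 0.0949) and that of Cry2 without mouse 3, 7, 8 or 9 (0.0994 to 0.134). Without the mouse term the adjusted p were 0.209 and 0.123, and with reads scaled to keratinocyte markers 0.267 and 0.457.

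The nuclear receptor genes Nr1d1 and Nr1d2 did not pass in any comparison when all 18 libraries were fitted as deposited. Nr1d1 had a mean ± SD (n = 6) of 496 ± 86.4 for CHR, 627 ± 194 for PAP and 414 ± 119 for SCC. The papilloma exceeded the skin in 3 of 6 mice (0.27 ± 0.16 SE, limma adjusted p 0.189). In SCC vs PAP it was lower in 5 of 6 mice (log2 fold change -0.52 ± 0.16, adjusted p 0.0641), the lowest of the 10 genes in that comparison, and it passed without mouse 2 (-0.66, adjusted p 0.0353). Thra, which shares exon bases with it, had log2 fold changes of -0.17, -0.23 and -0.05 in PAP vs CHR, SCC vs CHR and SCC vs PAP, and none passed. Nr1d2 (ENSMUSG00000021775.11, chromosome 14, 18204054 to 18239127) counted 705 ± 205 in CHR, 558 ± 121 in PAP and 586 ± 127 in SCC, with log2 fold changes of -0.28 ± 0.16 and -0.22 ± 0.16 against CHR (adjusted p 0.156 and 0.29). The former passed with reads scaled to keratinocyte markers (-0.98, adjusted p 0.0483).

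Dbp (ENSMUSG00000059824.12, chromosome 7, 45705088 to 45710203), whose product binds D-boxes and whose rhythm is among the strongest in most tissues, fell in both lesions. Its counts in mice 2, 3, 7, 8, 9 and 10 were 254, 256, 202, 307, 494 and 561 in CHR. In PAP they were 119, 299.9, 125, 146, 249 and 297, so that only mouse 3 had more Dbp in its papilloma than in its skin. In SCC they were 208, 164, 196, 125, 123 and 220.2, below the skin of the same mouse in 6 of 6. The log2 fold change was -0.58 ± 0.20 (SE) in PAP vs CHR (limma adjusted p 0.0242) and -0.73 ± 0.20 in SCC vs CHR (0.0113), and -0.15 ± 0.20 in SCC vs PAP (0.708). Within mice the median ratio of normalised reads was 0.52 in both lesions. The first no longer passed without mouse 8 (0.0807) or mouse 10 (0.0682). The second no longer passed without mouse 9 (0.0536) or with reads scaled to keratinocyte markers (0.268). Sphk2, which shares exon bases with Dbp, had a log2 fold change of -0.22 in PAP vs CHR (adjusted p 0.0704) and of -0.37 in SCC vs CHR (0.00981).

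Of 28 other genes of the clock, 27 were in the table. In PAP vs CHR 13 of them were higher and 8 lower at a limma adjusted p under 0.05, where 23.3% and 29.3% of all genes were. The carcinomas had 4 higher and 6 lower than CHR, where 15.8% and 22.7% of all genes were. In SCC vs PAP 0 passed in limma and 0 in limma-voom, with 6 at an unadjusted p under 0.05 in each. Over all genes, 9.85% passed there in limma and 24.6% had an unadjusted p under 0.05. Several of these changes were larger than any of the 10 core genes. Scaled to keratinocyte markers, 0 were higher and 9 lower in PAP and 0 higher and 3 lower in SCC against CHR. Of the calls over all genes under that scaling, 5.4% were higher in PAP and 36.3% in SCC. Of the 21 that passed in PAP vs CHR, 5 (Csnk1d, Fbxw7, Nono, Sfpq and Skp1a) then turned in sign. Relative to the median of all genes 0 did so, which is no test, since the scaling shifts all genes of a library alike. The 27 had a median log2 fold change of 0.28 in the papillomas and 0.04 in the carcinomas against CHR.

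The relatives of the activators moved in opposite directions. Arntl2, a paralogue of Arntl whose product also pairs with CLOCK, rose from 451 ± 94.8 in CHR to 970 ± 276 in PAP and 991 ± 323 in SCC (SD, n = 6). All 6 papillomas (718.5 to 1334) and all 6 carcinomas (592 to 1369) lay above the highest CHR count of 586. Groups that do not overlap were seen for 33.6% of all genes in PAP vs CHR and for 19.7% in SCC vs CHR. The log2 fold changes were 0.97 ± 0.22 and 0.98 ± 0.22 (SE), with limma adjusted p of 0.00293 and 0.00454. Scaled to keratinocyte markers, Arntl2 passed in neither comparison (limma adjusted p 0.452 and 0.0739). Npas2, which can stand in for Clock, fell from 125.4 ± 46.6 to 31.9 ± 34.9 in PAP (-1.22 ± 0.31, adjusted p 0.0053) and was at 86.1 ± 76.4 in SCC (adjusted p 0.216). Rora, which encodes a receptor that activates Arntl at the sites where NR1D1 and NR1D2 repress it, fell in both lesions. It had log2 fold changes of -0.95 ± 0.37 and -1.31 ± 0.37 (adjusted p 0.0478 and 0.0145).

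Bhlhe40 and Bhlhe41 (also called Dec1 and Dec2), whose products compete at E-boxes, also parted. Bhlhe40, which hypoxia and growth signals induce as well, rose from 2513 ± 247 in CHR to 5939 ± 2080 in PAP and 4013 ± 1010 in SCC, with log2 fold changes of 1.15 ± 0.18 (limma adjusted p 0.00017) and 0.62 ± 0.18 (0.0163). Bhlhe41 fell from 558 ± 245 to 68.9 ± 37.5 in PAP and 140.4 ± 89.6 in SCC, the largest change among all the clock genes, with -2.18 ± 0.31 (7.99e-05) and -1.61 ± 0.31 (0.00154), lower in 6 of 6 mice in both. Among the D-box factors, Tef fell in SCC vs CHR (-0.53 ± 0.18, adjusted p 0.0307), while Hlf (0.66 ± 0.26, 0.0455) and the repressor Nfil3 (0.64 ± 0.17, 0.00593) rose in PAP vs CHR. Usp2, which encodes a protease that removes ubiquitin from clock proteins and whose transcript the clock drives, fell from 786.5 ± 103 to 265 ± 139 in PAP and 231 ± 76.7 in SCC. All 12 lesions lay below the lowest CHR count of 674 (log2 fold changes -1.45 ± 0.28 and -1.54 ± 0.28, adjusted p 0.000712 and 0.000936). Such a separation was shown by 33.6% of all genes in PAP vs CHR and by 19.7% in SCC vs CHR.

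Of the kinases that mark PER for breakdown, Csnk1e fell in both lesions (-0.94 ± 0.18 and -0.88 ± 0.18, limma adjusted p 0.000785 and 0.00224) and Csnk1d rose in PAP (0.35 ± 0.10, adjusted p 0.008), although scaled to keratinocyte markers it lay at -0.31. Csnk1a1, a further kinase gene of the list, rose more in PAP (0.90 ± 0.19, limma adjusted p 0.00161). It did not pass in SCC vs CHR (0.26 ± 0.19, adjusted p 0.308). Timeless and Tipin, which act mainly at replication forks, rose in both lesions (0.95 and 0.78 in PAP, 0.80 and 0.69 in SCC), and Wee1, a brake on entry into mitosis under clock control, rose in PAP (0.63 ± 0.15, adjusted p 0.00404). Ciart, whose product represses the ARNTL and CLOCK pair, had 19.8 to 71.0 normalised reads in CHR, did not pass and was singled out after its values were seen. Its highest count was that of mouse 10 in each group, at 71.0 in CHR, 232 in PAP and 127 in SCC.

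**Figure D4:**
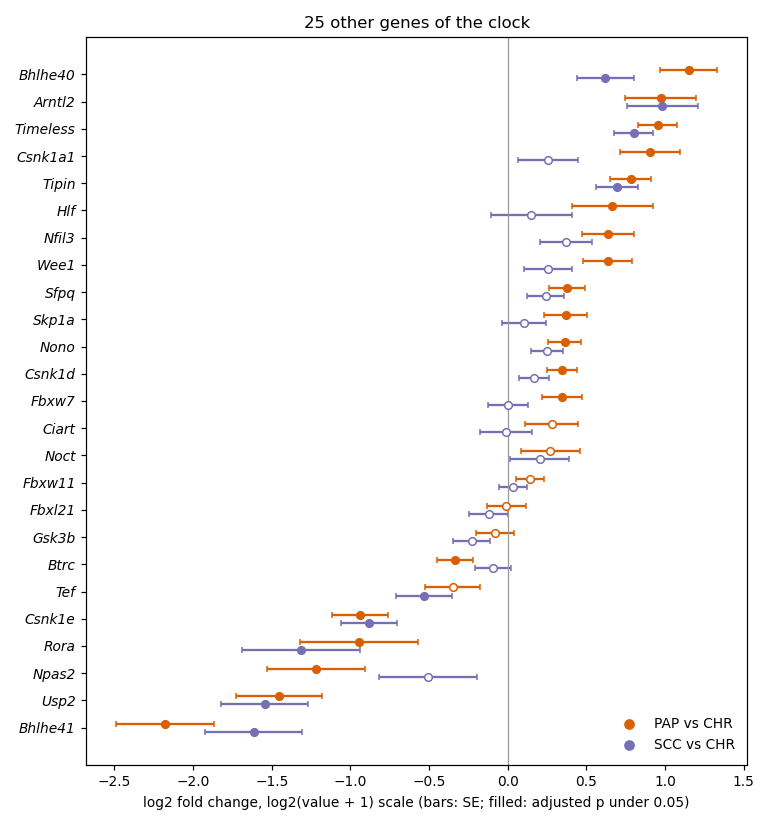
Log2 fold change on the log2(value + 1) scale of 25 of the 27 other clock genes in PAP vs CHR and SCC vs CHR, ordered by the first, with bars for the SE and filled points for an adjusted p under 0.05 in limma. Bhlhe41, Usp2 and Npas2 lie farthest to the left in PAP, and Bhlhe40 and Arntl2 farthest to the right.

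The tissues also differed in the levels of cell type markers. All 10 keratinocyte markers were present in every library, with a sum of 432000 to 850000 normalised reads in CHR, 660000 to 1190000 in PAP and 215000 to 774000 in SCC, and 7 of them rose and 1 fell in the papillomas. All 16 skeletal muscle markers fell in PAP vs CHR, from a sum of 408000 to 614000 normalised reads down to 317 to 30700, with 5 of them (Myh1, Tnnc2, Pvalb, Myoz1 and Casq1) at 0 reads in at least 1 papilloma. In SCC the muscle sum was 416 to 202000, with Ckm, Myh1, Myh2, Tnnc2 and Casq1 at 0 in at least 1 carcinoma. The adipocyte sum was 8380 to 23400 in CHR, 2110 to 13300 in PAP and 1890 to 23000 in SCC, and 7 of its markers, Adipoq and Plin1 among them, were at 0 in at least 1 library of each lesion type. The fibroblast sum was 141000 to 311000, 5500 to 162000 and 18000 to 499000 in the same order, with Mfap5 at 0 in some lesions. The sebaceous sum was 66600 to 173000, 9260 to 17200 (Elovl3 at 0 in at least 1 papilloma) and 8390 to 23500, and the myeloid sum 38000 to 62500, 1930 to 9600 and 5020 to 56300. The T cell sum was 980 to 2100, 142 to 508 and 361 to 1110, and the endothelial sum 6170 to 8900, 3610 to 6230 and 5620 to 9210. Of 10 adipocyte markers 9 fell in PAP and 9 fell in SCC against CHR, as did 8 and 8 of 8 sebaceous gland markers, 7 and 7 of 8 myeloid markers, 7 and 6 of 7 T cell markers, and 8 and 3 of 10 dermal fibroblast markers. Of 8 endothelial markers 1 rose and 5 fell in PAP, and 2 rose and 1 fell in SCC. Between PAP and SCC 15 of 16 muscle, 7 of 8 myeloid, 5 of 10 fibroblast and 4 of 8 endothelial markers were higher in SCC. So were 1 of 7 T cell and 1 of 8 sebaceous markers. In the same comparison 3 of 10 keratinocyte markers were lower and 0 of 10 adipocyte markers passed. The part of these cell types in the differences of the clock genes was not tested. When reads were scaled to the summed keratinocyte markers, the median of all genes shifted to -0.66 for PAP vs CHR, 0.12 for SCC vs CHR and 0.79 for SCC vs PAP. This scaling divides all genes of a library by the same factor, so subtracting these medians largely undoes it. After that subtraction Clock was at 0.53, Per1 at -0.43 and Dbp at -0.75 in PAP vs CHR. All 30 differences of the 10 genes then kept their sign, which follows from the arithmetic and is no test of cell composition. Without the subtraction Clock was at -0.13 in PAP vs CHR.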

How the data were processed

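Paired reads were aligned by the authors to mm10 with MOSAIK and counted per gene with HTSeq. The deposited values are a score, namely counts divided by scaling factors and put through a variance-stabilizing transformation, on a linear scale where 0 reads appear as 39. Software versions, annotation, strandedness and the filter on low genes are not given in the sources used here. The methods also name a scaling of batch medians, but no batch is labelled. The transformation was inverted (zero level 39.13), and the size factors (0.834 to 1.18) followed from the step between neighbouring whole reads. A whole read gave back the deposited value, after rounding, for 98.7% of values and for 100% of those under 100. Of 14542 entries, 21 had a number for a name and were left out (at most 0.236% of a library's total). No pair of the 18 libraries was a copy (at most 2.23% equal values).

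The test was limma 3.58.1 (R 4.3.3), two-sided, on log2(value + 1) with group and mouse as terms, all 18 libraries, and Benjamini-Hochberg adjustment over 14521 genes at 0.05. It was tested on simulated data. The mouse term follows from the shared animal, although deviations of same-mouse libraries correlated only at -0.25 to 0.51 over all genes. Alternatives were no mouse term, a random mouse term, 2 groups only, limma-voom on recovered reads with written-out TMM scaling, other pseudocounts (100, or 1 on normalised reads), a minimum mean of 20 reads, 3 other scalings, and leaving out each mouse. Members and gene lists were chosen with earlier results of these data known. All members and any listed clock gene that passed could be named, and like-pattern genes were the 5 with the highest correlation. Of the listed clock genes, 2 enter the counts but are not reported here one by one. Coordinates are from GENCODE M21. Matches to RefSeq promoters used the gene symbol. P-values of the tissue comparisons are set against how much the differences within mice varied among these 6 littermates. Those of the mouse term are set against the spread within mice.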

Additional observations from a re-analysis of the deposited data

Results flagged for a closer look

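In each group of 6 the gap of the highest and of the lowest sample to its neighbour was set against the whole range of the group (Dixon's criterion at the 95% level). Of 30 groups checked (10 genes in 3 tissues), 5 held such a sample. Chance gives about 1 in 20 for independent groups of normally distributed values. The 30 groups share the same 18 libraries and the counts were not put on a log scale, so the 5 cannot be read against that rate. Mouse 10 was the source of 4. Its papilloma had 763.5 normalised reads of Per2, while the next papilloma had 218, and 1131 of Cry2, while the next had 447. Its carcinoma had 714 reads of Per1, with 503 in the next, and 550.6 of Cry2, with 361 in the next. The fifth was the irradiated skin of mouse 2, with 4326 reads of Clock against 3530 in the next mouse. These are values only, and no cause was tested.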

How the results depend on the processing

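Of 480 values of the 10 genes under alternatives, 407 kept direction and side of the threshold, 42 lost a call, 12 gained one and 19 changed sign. Without the mouse term (no replicate block), members lower in PAP vs CHR numbered 1, those higher and lower in SCC vs CHR 0 and 2, and all genes passing in SCC vs PAP 810. A random mouse term gave 1, 1 and 2 members. With only 2 groups in the fit, 0 genes passed in SCC vs PAP; limma-voom gave 867 there and 3 for the mouse term. Log2 of normalised reads, library totals and upper quartiles each left 2 members lower in SCC vs CHR.

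Scaling to keratinocyte markers gave 0 members higher and 6 lower in PAP vs CHR, none either way for SCC vs CHR (0 and 0; 1731 genes in all) and 1 higher in SCC vs PAP (Cry1; 3753 genes in all). The median of all genes moves under it, as given above. Signs turned for Cry1 (-0.44), Arntl (-0.58), Clock (-0.13) and Nr1d1 (-0.36) in PAP vs CHR, Arntl (0.056) in SCC vs CHR, and Per1 (0.46), Per3 (0.69), Cry2 (0.65), Arntl (0.63), Clock (0.62), Nr1d1 (0.23) and Dbp (0.64) in SCC vs PAP. Its split of calls was 5.4%, 36.3% and 99.9% higher, against 44.4%, 41.0% and 88.8%, and limma-voom gave 51.2%, 52.9% and 85.2%; upper quartiles gave 51.7% in SCC vs CHR. Per2 in SCC vs PAP (0.01) became -0.30 in limma-voom and -0.053 with log2(value + 100).

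Without 1 mouse, which leaves fewer samples, members higher ranged 1 to 2 for PAP and 0 to 2 for SCC against CHR, and members lower 1 to 2 and 1 to 5; in SCC vs PAP 0 to 1 were lower. All genes passing ranged 0 to 1995 in SCC vs PAP (471 without mouse 3, 0 without mouse 7 or mouse 8) and 2 to 7 for the mouse term. Signs turned in SCC vs PAP for Per2 (-0.26, -0.07 and -0.09 without mice 2, 7 and 8, range -0.259 to 0.278) and Nr1d2 (-0.053 without mouse 3, up to 0.206), and in PAP vs CHR for Arntl (-0.01 without mouse 10, up to 0.106). The causes were not tested.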
